A study of Mus musculus with 42 samples.

Results

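Aged and young macrophages that had been primed with β-glucan and then given lipopolysaccharide (LPS) were compared across all genes. They made up 6 of the 42 libraries of the series, 3 aged and 3 young, chosen by the age and treatment in their labels. The cells were grown from whole bone marrow of male wild-type C57BL/6 mice in medium with M-CSF, a macrophage growth factor, and the labels describe no sorting. Aged mice were 18 to 20 months old and young mice 10 to 12 weeks. Cells of both ages had β-glucan at 5 µg/mL for 24 h and were collected on day 3, with LPS at 100 ng/mL for the last 4 h. The other 5 treatments, set beside these at both ages, were a vehicle of 0.1% normal saline, β-glucan for 4 h, β-glucan for 24 h, day 3 after β-glucan without LPS, and LPS for 4 h without β-glucan (naive cells). The labels call the libraries biological replicates and do not say whether each came from its own mouse. The p-values and standard errors measure the spread between libraries within groups, which may be technical. This spread was estimated over all 42 libraries in 12 groups, not over the 6 compared alone.

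β-glucan is a fungal cell-wall polysaccharide bound by Dectin-1 (Clec7a), a C-type lectin that signals through Syk and Card9. Exposure to it can alter how a macrophage responds to a later stimulus, which is called trained immunity. LPS, a component of Gram-negative bacteria, is recognised by Toll-like receptor 4 (Tlr4) with Cd14. One arm of the signal runs through Myd88 to NF-κB and inflammatory cytokines, and another through Ticam1 to interferon-β and the genes that interferon induces.

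Total counts in the 6 libraries ran from 39850835 to 45932015, and 17648 genes passed the filter on low counts and were tested. Levels are given as CPM, read counts scaled to the TMM-adjusted size of each library and not corrected for transcript length. TMM factors were 0.7327 to 0.7772 in the 6 libraries and 1.13 to 1.28 in libraries without LPS. The summed level of 15 genes of macrophage identity was 30510 to 31640 CPM in aged and 29000 to 36160 CPM in young libraries. Of the 15, 0 passed the test between ages described below, beside 0.164% of all tested genes. No count was found in the 6 libraries for the neutrophil gene Ly6g, the T-cell gene Cd3e or the stromal gene Thy1. Other genes of these lists were detected. Csf3r of the neutrophil list had 11316 counts, Lck of the T-cell list 591 and Col1a2 of the stromal list 4863.

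The inflammatory response to LPS was large at both ages, and none of 42 key genes, not all of them LPS-responsive, passed the test between ages. LPS changed 9119 of 17648 genes in young primed cells (51.7%) and 9213 in aged primed cells (52.2%). The test was edgeR's quasi-likelihood test with Benjamini-Hochberg adjustment over all tested genes and a threshold of 0.05, which gave every adjusted p here. Among the key genes, 33 rose and 1, the haem-degrading enzyme gene Hmox1, fell with LPS at both ages. Between ages 0 of 42 were called, at a background of 0.164% (29 of 17648 genes). For 33 of the 42 the 95% interval of the log2 fold change lay within 1 log2 unit of zero on both sides. The interval was taken from the standard error of the fit to all 42 libraries.

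Tnf, a cytokine gene switched on early after LPS, stood at 6202, 6432 and 6242 CPM in the aged libraries and at 7215, 6954 and 7115 CPM in the young. The aged libraries all lay below the young. The log2 fold change of aged against young was -0.17 ± 0.20 (SE of the fit to all 42 libraries, n = 3 per age). It did not pass (edgeR adjusted p = 0.868). Il6, the gene of interleukin-6, was at 1129, 803 and 712.6 CPM in aged and 761.8, 921.5 and 875.7 CPM in young libraries. The groups overlapped (0.05 ± 0.22, adjusted p = 0.989). Il1b, the gene of interleukin-1β, was at 3126, 2506 and 2225 CPM in aged and 2611, 2889 and 2847 CPM in young libraries. These also overlapped (-0.09 ± 0.37, adjusted p = 0.986). Il12b, a subunit shared by interleukins 12 and 23, was at 1272, 1069 and 1017 CPM in aged and 1222, 1105 and 1140 CPM in young libraries, again with overlap. Il10, the gene of an anti-inflammatory cytokine, was low, at 5.26, 2.05 and 3.96 CPM in aged and 1.61, 4.86 and 3.11 CPM in young libraries. Its libraries overlapped, and the 95% interval of its log2 fold change ran from -0.66 to 1.13. The interval was wider still for Il23a, from -2.78 to 0.66.

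Ifnb1 and Cxcl10, of the interferon arm, overlapped between ages as well. Ifnb1, the interferon-β gene, was at 15.2, 10.0 and 7.39 CPM in aged and 12.3, 8.32 and 8.76 CPM in young libraries. Cxcl10, an interferon-induced chemokine, was at 9230, 7800 and 7734 CPM in aged and 7786, 8035 and 7966 CPM in young libraries (0.06 ± 0.39, adjusted p = 0.997). All 47 tested interferon-stimulated genes rose with LPS at both ages. Of all 17648 tested genes, 4403 rose in young and 4375 in aged primed cells. Between ages 0 of the 47 passed the test, beside 0.164% of all tested genes. In 3 of the 47 the aged and young libraries did not overlap, beside 11.4% of all tested genes. The median log2 fold change of the 47, aged against young, was 0.04, beside -0.01 over all tested genes.

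Of the effector enzymes, Acod1, which makes itaconate, was at 10480, 9491 and 9351 CPM in aged and 11010, 10570 and 10250 CPM in young libraries. Nos2, the inducible nitric oxide synthase, was at 837.5, 698.5 and 679.6 CPM in aged and 578.7, 694.8 and 664.5 CPM in young libraries. The aged libraries of Acod1 included one above the lowest young library, and those of Nos2 included one below the highest. The 95% intervals of the log2 fold change ran from -0.69 to 0.45 for Acod1 and from -0.11 to 0.49 for Nos2.

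**Figure D1:**
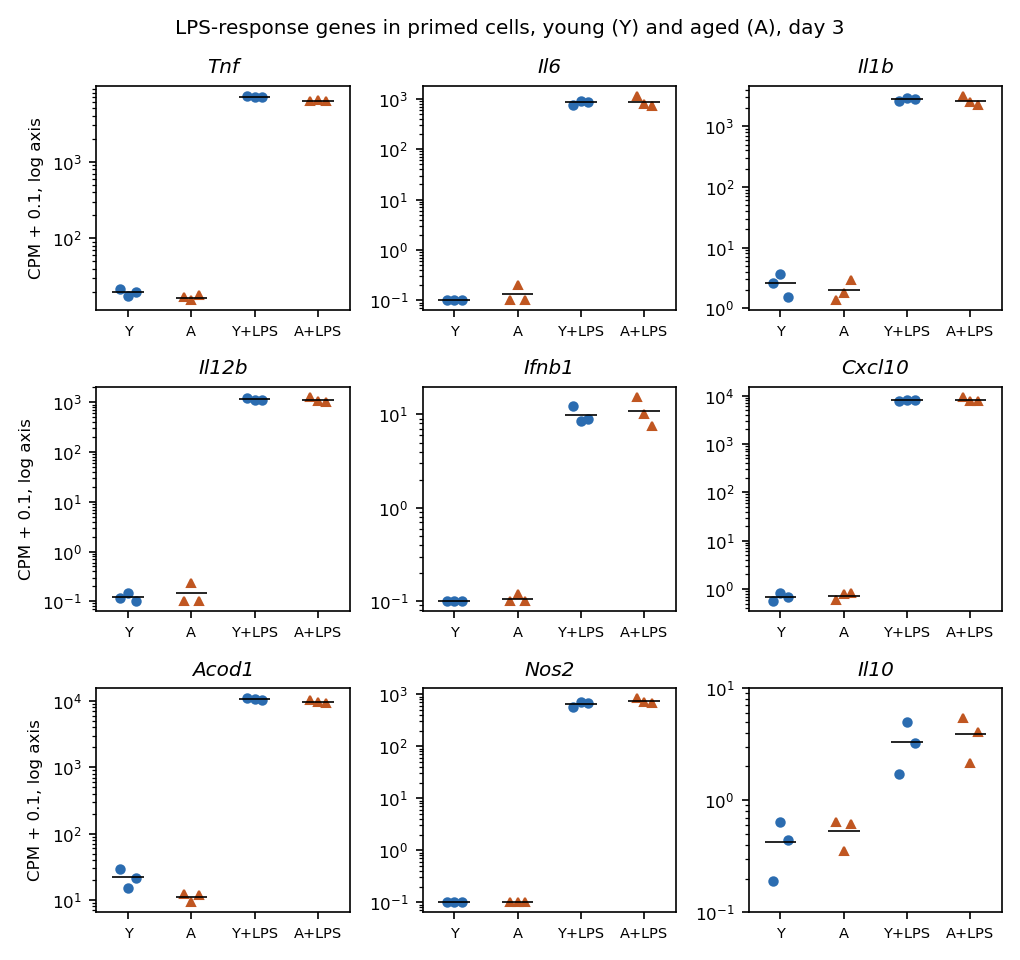
CPM plus 0.1 (log axis) of LPS-response genes in primed cells on day 3, without and with LPS. Each point is 1 library (young and aged marked separately) and lines are group means; the rise with LPS is seen at both ages, and after LPS the aged libraries of Tnf all lie below the young.

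Among receptors and regulators, some levels were shifted without passing. Tlr2, a receptor of bacterial lipoproteins, was at 1162, 1192 and 1193 CPM in aged and 1523, 1386 and 1293 CPM in young libraries. The aged libraries were all below the young (-0.24 ± 0.12, adjusted p = 0.605). Slc7a11, the cystine transporter of the antioxidant response, was at 434.4, 835.1 and 788.7 CPM in aged and 1247, 923 and 920.5 CPM in young libraries (-0.59 ± 0.33, adjusted p = 0.649). Ciita, the master regulator of MHC class II genes, was at 24.1, 27.1 and 17.0 CPM in aged and 12.3, 16.6 and 12.3 CPM in young libraries. Its aged libraries were all above the young (0.73 ± 0.37, adjusted p = 0.602). Cdkn2a, a cell cycle inhibitor that marks senescent cells in many tissues, was at 4.09, 5.17 and 4.33 CPM in aged and 3.04, 2.46 and 3.20 CPM in young libraries. Here too every aged library was above every young one, and the difference did not pass (0.64 ± 0.28, adjusted p = 0.515). Of the 42 key genes 12 had aged and young libraries that did not overlap, and 2006 of all 17648 tested genes (11.4%) had this too.

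The wider programmes held 2 calls. In 29 lists of macrophage functions, 2 of 677 tested genes were called (0.295%, beside 0.164% of all genes): Slc7a2, which was lower in aged cells, and Timp1, which was higher. The other 27 lists held none, among them cytokines (28 tested), chemokines (24), NF-κB subunits and feedback regulators (29), Toll-like receptors and adaptors (23), lysosomal genes (36) and cell cycle genes (40). In 24 of the 29 lists the median log2 fold change lay within 0.1 of zero. The highest median, 0.36, was that of MHC class II presentation, where 13 of 16 genes had a positive value and 0 passed. Cd74, the invariant chain, averaged 86.8 ± 17.8 CPM in aged and 56.4 ± 12.9 CPM in young libraries (SD, n = 3; log2 fold change 0.62 ± 0.47, edgeR adjusted p = 0.756). The lowest median, -0.24, was that of the mitochondrially encoded respiratory chain, where 12 of 13 genes had a negative value and 0 passed. Marco, a scavenger receptor, averaged 167.3 ± 86.1 CPM in aged and 588.8 ± 105.8 CPM in young libraries (SD, n = 3; -1.81 ± 0.50, edgeR adjusted p = 0.166).

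Between aged and young primed cells under LPS, 29 genes were called, 21 higher and 8 lower in aged cells (0.164% of those tested), and 1493 genes had an unadjusted p under 0.05. In all 29 the aged libraries lay apart from the young ones, beside 2006 of all 17648 tested genes (11.4%). The 29 were chosen by a test on these same libraries, so this is no separate support for them. How many were called depended on single libraries. Of the 29, 2 were called without young replicate 1, 11 without young replicate 2 and 10 without young replicate 3. Without aged replicates 1, 2 and 3, 15, 15 and 17 of the 29 were called. All 29 kept their sign in each of these fits.

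**Figure D2:**
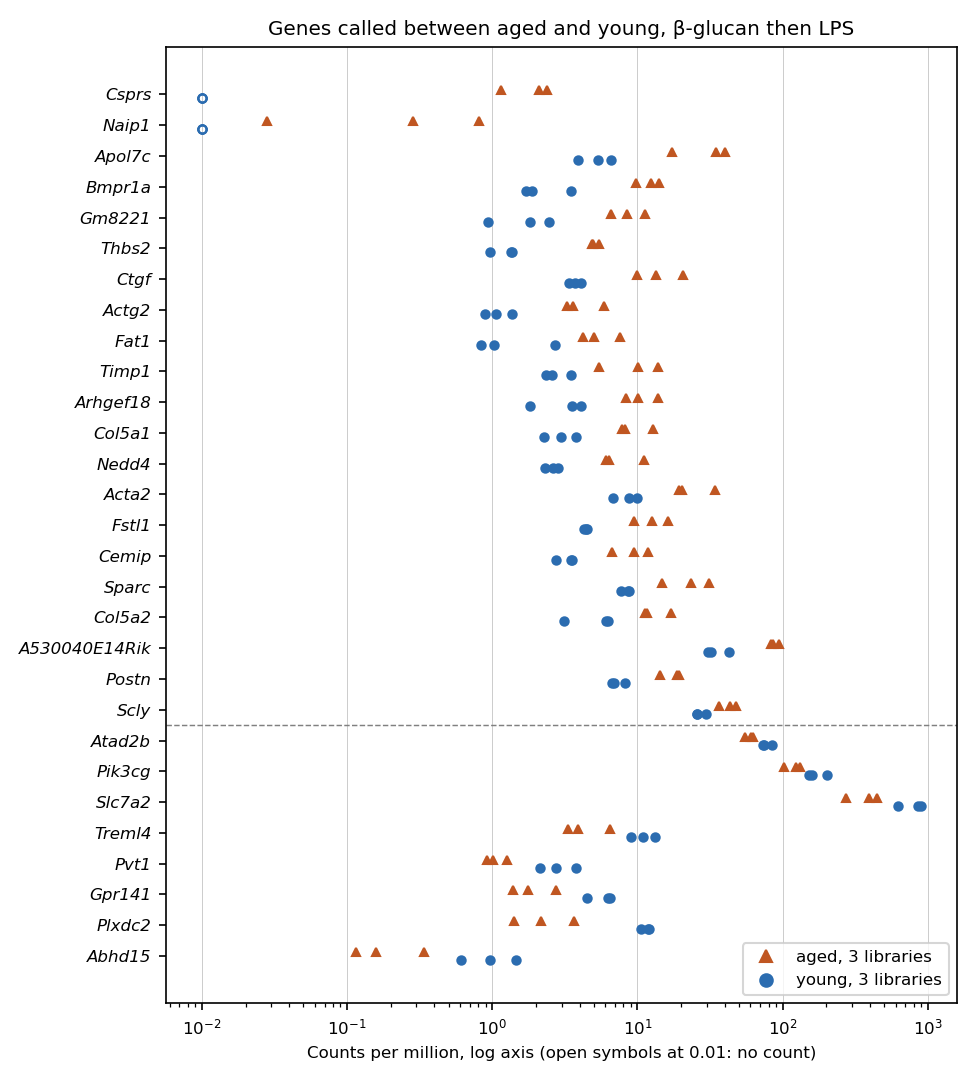
CPM (log axis) of the 29 called genes in the 3 aged and 3 young libraries of primed cells given LPS, ordered by log2 fold change; symbols at the left edge mark libraries with no count. The genes were chosen by a test on these libraries. In each of them the libraries of the ages do not overlap, beside 11.4% of all tested genes. Of the 29, 21 are higher and 8 lower in aged cells.

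Bmpr1a (ENSMUSG00000021796, mm10 chr14:34410734-34503341, minus strand), a type I receptor of bone morphogenetic proteins, had the smallest adjusted p. It stood at 9.77, 14.1 and 12.4 CPM in aged libraries and at 3.502, 1.698 and 1.873 CPM in young ones. Every aged library was above every young one, and the log2 fold change was 2.36 ± 0.26 (5.12-fold, edgeR adjusted p = 3.08e-07). It was called in each of 16 alternative fits, with log2 fold changes of 2.17 to 2.76. On day 3 without LPS, aged libraries had 15.8, 18.4 and 13.9 CPM of Bmpr1a and young ones 2.02, 1.63 and 2.20 CPM. Under vehicle, aged libraries had 16.8, 18.5 and 12.9 CPM, young replicates 1 to 3 had 0.99, 1.56 and 1.81 CPM, and young replicates 4 to 6 had 1.46, 1.63 and 1.80 CPM. The groups were apart in both, and the age difference was called in all 6 treatments, at 3.01 to 3.37 in the other 5. It was not called as different after LPS from before LPS in primed cells (-0.69 ± 0.35, adjusted p = 1).

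The promoters of Bmpr1a, Acta2 and Timp1 are shown because Bmpr1a was called in every fit and the other two are a contractile and a matrix gene described next; most called genes lack the letters that Acta2 and Timp1 carry. Each runs 5′ to 3′ from 250 bases before to 50 after the gene's start in RefSeq on GRCm38.p6, at chr14:34502497-34502796 (minus), chr19:34255324-34255623 (minus) and chrX:20869916-20870215 (plus). Capitals mark GGAATG, the core letters bound by TEAD factors, searched on both strands (as GGAATG or CATTCC).
Bmpr1a: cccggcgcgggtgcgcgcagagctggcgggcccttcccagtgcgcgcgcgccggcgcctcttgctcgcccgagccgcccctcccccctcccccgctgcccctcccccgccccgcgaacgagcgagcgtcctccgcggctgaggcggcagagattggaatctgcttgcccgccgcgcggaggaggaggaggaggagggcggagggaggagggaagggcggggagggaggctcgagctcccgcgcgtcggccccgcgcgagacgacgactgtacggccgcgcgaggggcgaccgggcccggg
Acta2: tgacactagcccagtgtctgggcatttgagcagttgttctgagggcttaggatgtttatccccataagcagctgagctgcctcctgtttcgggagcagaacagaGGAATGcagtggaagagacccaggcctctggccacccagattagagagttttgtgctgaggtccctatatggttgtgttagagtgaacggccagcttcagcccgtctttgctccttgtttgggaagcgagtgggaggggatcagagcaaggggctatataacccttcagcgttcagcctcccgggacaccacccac
Timp1: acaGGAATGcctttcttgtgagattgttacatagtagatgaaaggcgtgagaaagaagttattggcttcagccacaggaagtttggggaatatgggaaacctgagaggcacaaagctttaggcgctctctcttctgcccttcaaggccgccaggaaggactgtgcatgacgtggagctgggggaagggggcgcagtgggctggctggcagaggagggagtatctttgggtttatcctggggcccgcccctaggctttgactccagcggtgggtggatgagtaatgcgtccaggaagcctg
The letters begin at base -146 from the start in Acta2 and at -247 in Timp1, and are not in the window of Bmpr1a. RefSeq held 25 promoters of 21 of the 29 called genes, and 4 of the 25 (16%) had the letters, beside 4817 of all 32851 promoters (14.7%). A match describes the letters and is not a binding site.

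Scly (mm10 chr1:91298338-91321075), which encodes selenocysteine lyase, showed a small difference in every treatment. Its level was 36.6, 47.9 and 43.2 CPM in aged and 25.9, 29.5 and 25.9 CPM in young libraries (0.65 ± 0.11, edgeR adjusted p = 0.00403). In the other 5 treatments the log2 fold change of Scly was 0.49 to 0.61 and was called each time. Without young replicate 1 of primed LPS cells it missed the threshold (adjusted p = 0.051). Arhgef18, an activator of the GTPase RhoA, was at 14.0, 8.38 and 10.0 CPM in aged and 1.83, 3.53 and 4.09 CPM in young libraries (1.77 ± 0.39, adjusted p = 0.0455). It too was called in all 6 treatments, at 1.58 to 1.92 in the others. In primed LPS cells it lost the call in 10 of 16 alternative fits, among them those without any one of the 6 libraries, with an adjusted p of up to 0.369.

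Of the 21 genes higher in aged cells, 11 encode proteins of the extracellular matrix, of its turnover or of the contractile cytoskeleton: Acta2, Actg2, Cemip, Col5a1, Col5a2, Ctgf, Fstl1, Postn, Sparc, Thbs2 and Timp1. This grouping was made after their values were seen and has no test. They were 2.43 to 4.15 times as high in aged as in young cells, at mean levels of 4.23 to 24.7 CPM in aged and 1.10 to 8.46 CPM in young libraries. In 9 of the 11 the highest aged library was replicate 3. LPS changed 0 of the 11 in young primed cells, where it changed 51.7% of all tested genes. In aged primed cells, where it changed 52.2%, 3 of the 11 rose with LPS on the log2 scale, Timp1 by 1.09, Fstl1 by 0.94 and Cemip by 0.90. The LPS effect did not pass as different between ages in these 3 (edgeR adjusted p = 1 for each).

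Acta2, smooth-muscle α-actin (ENSMUSG00000035783, mm10 chr19:34241090-34255336, minus strand), was at 19.4, 20.3 and 34.3 CPM in aged and 8.71, 6.83 and 9.86 CPM in young libraries (1.54 ± 0.31, edgeR adjusted p = 0.0248). Ctgf, a matricellular protein, was at 13.4, 9.99 and 20.5 CPM in aged and 3.69, 3.40 and 4.06 CPM in young libraries (1.97 ± 0.33, adjusted p = 0.00501). Sparc, a collagen-binding glycoprotein, was at 23.4, 14.8 and 31.2 CPM in aged and 7.72, 8.72 and 8.59 CPM in young libraries (1.47 ± 0.30, adjusted p = 0.0286). In these 3 genes the young libraries lay closer together than the aged ones. Timp1 (mm10 chrX:20870166-20874735), an inhibitor of matrix metalloproteinases, was at 10.1, 5.46 and 13.9 CPM in aged and 2.36, 3.46 and 2.59 CPM in young libraries (1.81 ± 0.34, adjusted p = 0.00999). It lies within Syn1 on the other strand, which had 7414 counts over all libraries beside 9888 of Timp1, and without a stated strand setting their reads cannot be told apart. Thbs2, an inhibitor of angiogenesis, had the largest fold of the 11, at 4.98, 5.46 and 4.86 CPM in aged and 0.96, 1.37 and 1.35 CPM in young libraries (2.05 ± 0.40). Postn, a matrix protein of remodelling tissue, had the smallest, at 19.4, 14.4 and 18.8 CPM in aged and 6.63, 6.86 and 8.16 CPM in young libraries (1.28 ± 0.27).

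Markers of stromal cells moved with these genes. Of 14 stromal genes 11 were tested and 3 were called higher in aged cells, beside 0.164% of all tested genes called. These were Col5a1, Sparc and Postn, which are among the genes above. The median log2 fold change of the 11 tested was 1.57, and 10 of the 11 were positive. Their summed level was 124.5, 115.6 and 193.5 CPM in aged and 56.5, 56.9 and 67.7 CPM in young libraries, with aged replicate 3 highest and no overlap. Col1a1 and Col1a2, the chains of type I collagen, averaged 33.7 and 36.0 CPM in aged and 11.4 and 11.8 CPM in young libraries and did not pass (adjusted p = 0.107 and 0.0513). Thy1 and Lepr had no count, Lum had 8 counts in the 6 libraries, and Pdgfrb was at 6.79 to 8.86 CPM in aged and 7.90 to 10.5 CPM in young libraries. In bulk RNA, fewer cells of a type and less RNA per cell cannot be told apart, and the part of stromal cells in these differences was not tested.

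**Figure D3:**
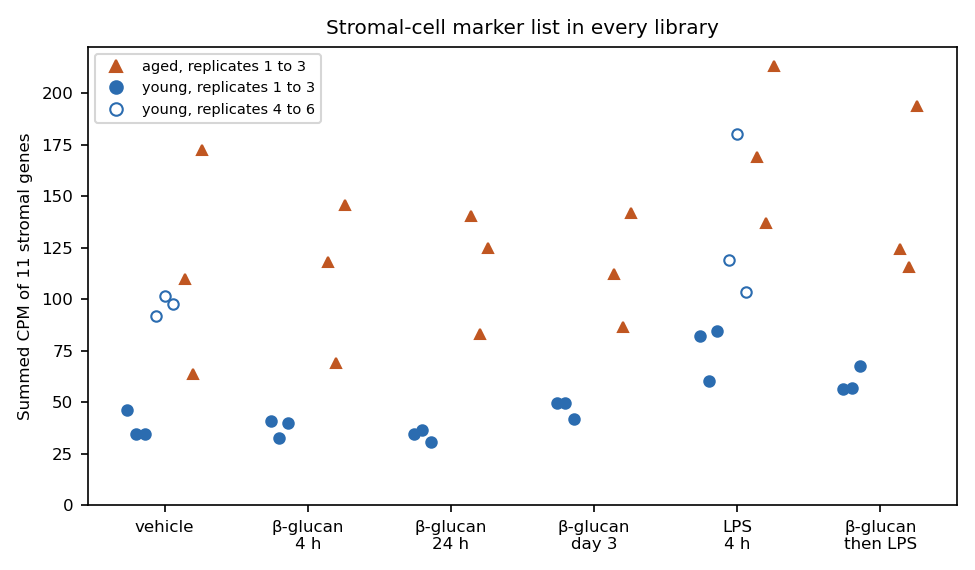
Summed CPM of the 11 tested stromal marker genes in each library of the 12 groups, with young replicates 4 to 6 marked apart. After β-glucan and LPS the aged libraries lie at 115.6 to 193.5 and the young at 56.5 to 67.7; young replicates 4 to 6 under LPS, at 103.4 to 180.2, overlap that aged range.

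The same genes differed between young libraries. Under vehicle and under LPS the young groups hold replicates 4 to 6 besides 1 to 3. The labels do not say how these sets differ, or with which of them the aged cultures were handled. The age of the mice and such a difference in handling therefore cannot be told apart for any gene compared. Between these sets 3074 of 17648 genes differed (17.4%). All 11 matrix and contractile genes were higher in replicates 4 to 6, by 0.71 to 1.40 on the log2 scale, and each difference passed. Under LPS without β-glucan, Acta2 was at 16.5, 26.4 and 14.2 CPM in young replicates 4 to 6, 9.62, 5.38 and 9.87 CPM in young replicates 1 to 3, and 21.9, 22.6 and 36.1 CPM in aged libraries. The aged values of Acta2 overlapped those of young replicates 4 to 6 and not those of 1 to 3. Young primed cells had replicates 1 to 3 alone. When their mean was placed midway between the sets, 0 of the 11 were called and the log2 fold changes were 0.78 to 1.57. Without a term for the sets 0 of the 11 were called as well, while their log2 fold changes stayed at 1.28 to 2.05. Bmpr1a (-0.01 ± 0.20), Scly (0.13 ± 0.08) and Arhgef18 (0.39 ± 0.27) were not called between the young sets. Age and handling cannot be told apart for these genes either.

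**Figure D4:**
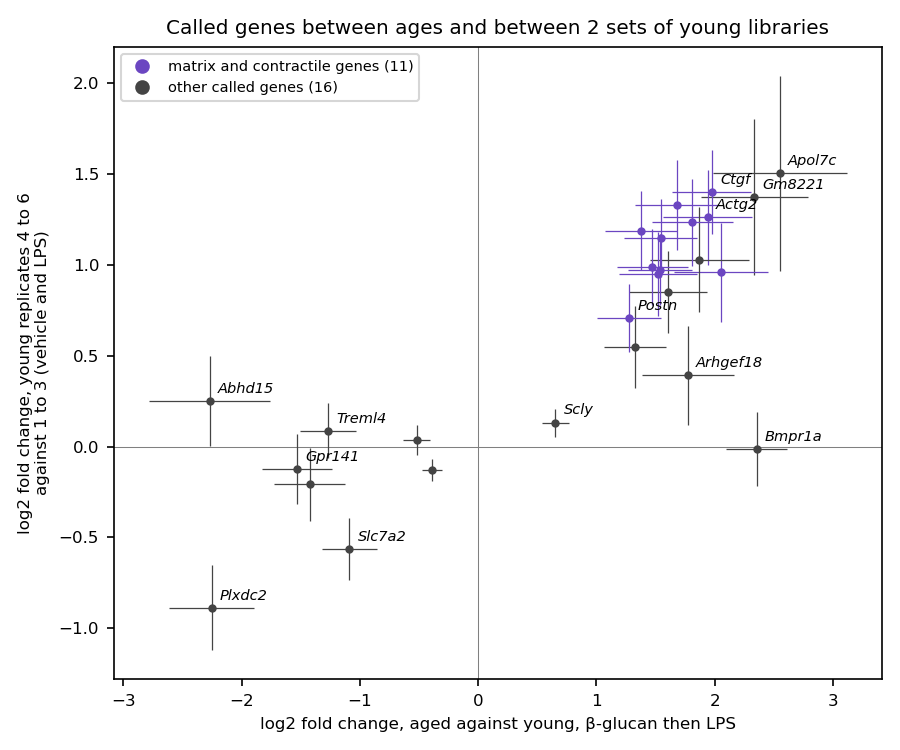
Log2 fold change of aged against young primed cells under LPS (horizontal) against that of young replicates 4 to 6 over 1 to 3 under vehicle and LPS (vertical) for called genes, with standard errors. The 11 matrix and contractile genes lie at 1.28 to 2.05 and 0.71 to 1.40, and Bmpr1a lies at 2.36 and -0.01.

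Fat1, an atypical cadherin, and Nedd4, a ubiquitin ligase, were higher in aged cells by 1.87 ± 0.42 and 1.60 ± 0.33 on the log2 scale (edgeR adjusted p = 0.0445 and 0.0211). Both were also called between the young sets, at 1.03 and 0.85.

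A further group of calls concerned genes that LPS induces. Apol7c (mm10 chr15:77524852-77533316), an apolipoprotein L gene, was at 40.3, 34.6 and 17.4 CPM in aged and 5.36, 6.53 and 3.89 CPM in young libraries (2.55 ± 0.57, edgeR adjusted p = 0.0479). It lost the call in 11 of 16 alternative fits. Gm8221, in the same cluster at chr15:77621834-77626637, was at 11.3, 8.46 and 6.55 CPM in aged and 0.93, 2.46 and 1.82 CPM in young libraries (2.33 ± 0.45, adjusted p = 0.00999). On day 3 without LPS Apol7c had no count at either age, and Gm8221 had at most 5 counts in a library. Under LPS without β-glucan, Apol7c was at 48.8, 49.7 and 45.4 CPM in aged cells, 9.65, 12.5 and 8.28 CPM in young replicates 1 to 3 and 34.2, 33.7 and 21.7 CPM in young replicates 4 to 6. The young sets differed in Apol7c by 1.505 ± 0.54 (adjusted p = 0.0484) and in Gm8221 by 1.37 ± 0.43 (adjusted p = 0.0193). The other tested genes of the cluster, Apol9a, Apol9b and Apol10b, had age differences of -0.06 ± 0.58, 0.22 ± 0.31 and 2.23 ± 1.15 and did not pass; Apol10b averaged 1.15 CPM in aged and 0.24 CPM in young libraries. Members of this family are alike in sequence, so the division of reads among them is uncertain.

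A530040E14Rik (mm10 chr1:85105946-85114035) was at 95.0, 85.2 and 82.6 CPM in aged and 32.0, 42.5 and 30.4 CPM in young libraries (1.33 ± 0.27, edgeR adjusted p = 0.0251). It lost the call in 10 of 16 alternative fits. LPS raised it by 5.08 in aged and 5.71 in young primed cells on the log2 scale. It overlaps A530032D15Rik and C130026I21Rik on the other strand, and their reads cannot be told apart. The 18 other tested genes around it all had positive age differences. Of the 18, 0 passed (smallest adjusted p = 0.304), beside 0.164% of all tested genes. A530032D15Rik was at 1.25 ± 0.45, and the nuclear body genes Sp100, Sp110 and Sp140 were at 0.06 ± 0.16, 0.10 ± 0.12 and 0.09 ± 0.16.

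In Csprs and Naip1 the young group had no count. Csprs, on the unplaced scaffold GL456221.1, had 75, 73 and 41 counts in the aged libraries. With a floor of 3 counts over the young group it was at least 60.1-fold higher in aged cells (edgeR adjusted p = 0.0192). Csprs lost its call in 5 of 16 alternative fits, among them those without any one of the 3 young libraries. Under LPS without β-glucan Csprs had 68, 41 and 34 counts in aged libraries and 0 to 5 in the 6 young ones. Naip1, of a family of NLR proteins that sense bacterial ligands, had 9, 28 and 1 counts in the aged libraries and was at least 12.1-fold higher by the same floor (adjusted p = 0.0292). Aged replicate 2 held 28 of its 38 counts, and without that library the bound was at least 4.82-fold and the call was lost. Naip1 lost its call in 7 of 15 alternative fits in all, among them those without any one of the 3 young libraries. Under LPS without β-glucan the aged libraries of Naip1 had no count, and on day 3 without LPS it was at 0.79 to 1.29 CPM in aged and 0.70 to 1.37 CPM in young libraries. Its neighbours Naip5 and Naip6 averaged 41.5 and 40.6 CPM in aged and 41.6 and 46.8 CPM in young libraries. Naip genes are alike in sequence, so the division of reads is uncertain.

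The 8 genes lower in aged cells were of mixed function. Slc7a2 (ENSMUSG00000031596, mm10 chr8:40862396-40922308), a cationic amino acid transporter that brings arginine into activated macrophages, was the most abundant. It was at 447.4, 392.9 and 274.4 CPM in aged and 897.9, 850 and 624.8 CPM in young libraries (-1.09 ± 0.23, edgeR adjusted p = 0.0437). The call was lost in 9 of 16 alternative fits. LPS raised it by 5.57 in aged and 5.85 in young primed cells on the log2 scale. Under LPS without β-glucan, Slc7a2 was at 436.7, 425.5 and 348.3 CPM in aged cells, 952.8, 871.2 and 873.1 CPM in young replicates 1 to 3 and 580.4, 594.3 and 668.7 CPM in young replicates 4 to 6. Every aged library was below every young one there, and the young sets differed by -0.56 ± 0.17 (adjusted p = 0.0205). It was the only call among 15 genes of arginine and nitric oxide metabolism, beside 0.164% of all tested genes. Slc7a1, a related transporter, averaged 136 CPM in aged and 131.8 CPM in young libraries, and Ass1, the argininosuccinate synthase, 70.2 and 90.1 CPM (-0.36 ± 0.20, adjusted p = 0.645).

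Plxdc2, a transmembrane protein with a plexin domain, was at 3.68, 2.17 and 1.41 CPM in aged and 11.8, 12.0 and 10.6 CPM in young libraries (-2.25 ± 0.36, edgeR adjusted p = 0.0035). It was lower in aged cells in all 6 treatments and called in 5 of them, and it was called in 15 of 16 alternative fits. It too was lower in young replicates 4 to 6 than in 1 to 3 (-0.89 ± 0.23, adjusted p = 0.00689). Treml4, a receptor of myeloid cells, was at 3.87, 3.35 and 6.52 CPM in aged and 13.2, 8.99 and 10.98 CPM in young libraries (-1.27 ± 0.24, adjusted p = 0.00999). Gpr141, an orphan receptor, was at 1.78, 1.39 and 2.76 CPM in aged and 6.23, 6.46 and 4.50 CPM in young libraries (-1.53 ± 0.29, adjusted p = 0.0105). Neither Treml4 nor Gpr141 was called between the young sets. Treml4 was the only call among 8 tested monocyte genes, beside 0.164% of all tested genes. The summed level of the 8 was 72.3 to 82.8 CPM in aged and 88.2 to 117.5 CPM in young libraries, with 1 of 8 genes positive. The part of these monocyte genes in the result was not tested.

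Pik3cg, the catalytic subunit of phosphoinositide 3-kinase γ, was at 102.2, 124.2 and 132.1 CPM in aged and 202.8, 151.8 and 159.9 CPM in young libraries (-0.52 ± 0.12, edgeR adjusted p = 0.0437). Pik3cg lost the call in 10 of 16 alternative fits. In the other treatments its log2 fold change ran from -0.37 to 0.03 and was not called. Atad2b, a bromodomain protein, was at 60.3, 54.8 and 62.4 CPM in aged and 84.4, 74.7 and 73.6 CPM in young libraries (-0.39 ± 0.09, adjusted p = 0.037). The long non-coding RNA Pvt1 was at 1.02, 0.92 and 1.27 CPM in aged and 3.75, 2.13 and 2.74 CPM in young libraries (-1.43 ± 0.30, adjusted p = 0.0286). LPS lowered Pvt1 at both ages, with log2 fold changes of -2.42 in aged and -0.91 in young primed cells. Abhd15, a hydrolase-domain protein, was at 0.16, 0.12 and 0.34 CPM in aged and 1.46, 0.97 and 0.61 CPM in young libraries (-2.27 ± 0.51, adjusted p = 0.0455). Abhd15 also lost the call in 10 of 16 alternative fits. It overlaps Taok1 on the other strand, which had 365830 counts over all libraries beside 9986 of Abhd15, and their reads cannot be told apart.

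Many of the 29 genes were called in the same direction under other treatments, which share the fitted model but no libraries with this comparison. Under LPS without β-glucan 22 of the 29 were, which is 75.9% of the 29 and 28.9% of the 76 genes called there (background 0.431%). Under vehicle it was 19, or 65.5% of the 29 and 24.1% of 79 (background 0.448%). After β-glucan for 4 h it was 16, or 55.2% of the 29 and 43.2% of 37 (background 0.21%), and after 24 h 15, or 51.7% and 27.3% of 55 (background 0.312%). On day 3 without LPS it was 5, or 17.2% and 41.7% of 12 (background 0.068%). None of the 29 was called in the opposite direction in these 5 treatments. The labels do not say whether libraries of different treatments came from the same mice or cultures. Recurring calls therefore need not be independent repeats. Bmpr1a, Scly, Arhgef18 and Actg2 were called in all 6 treatments, and Csprs, Naip1, Apol7c, Pik3cg, Treml4 and Pvt1 in primed LPS cells alone. A call in one treatment and not in another does not show that the age difference changed.

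**Figure D5:**
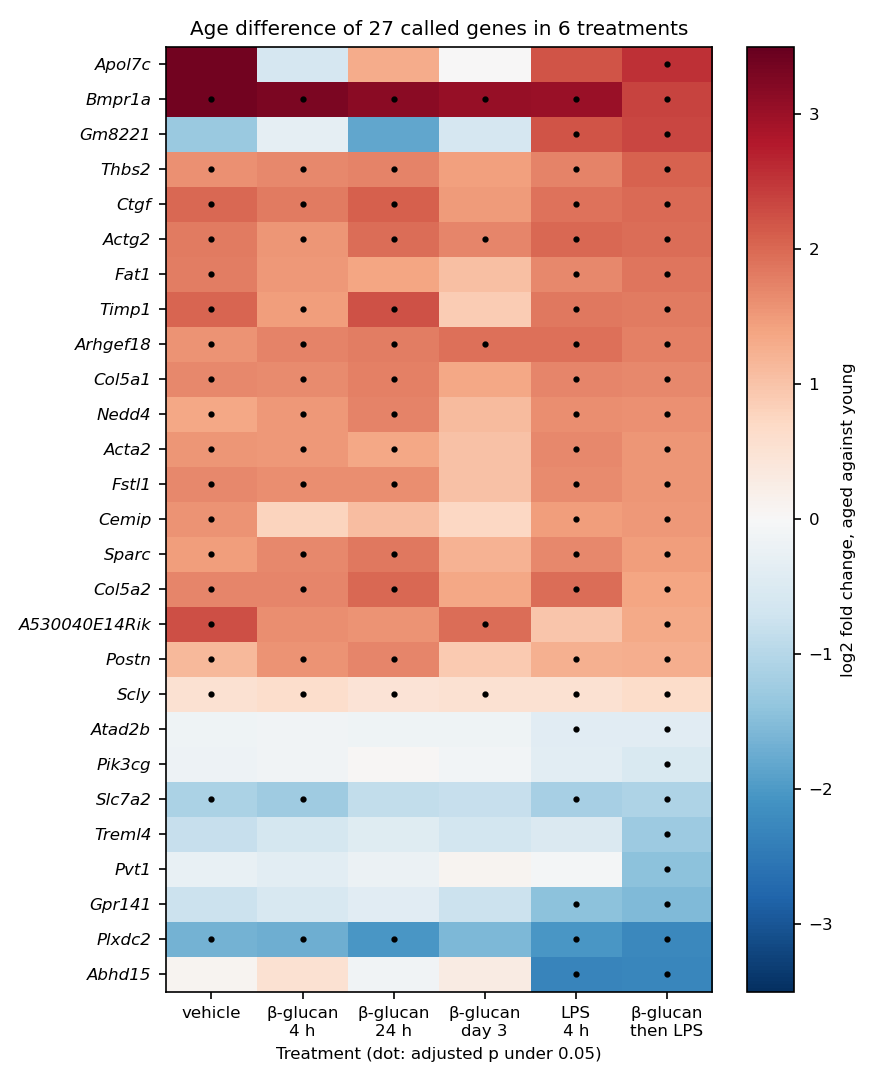
Log2 fold change of aged against young cells (colour) in 6 treatments for called genes, with a dot where the adjusted p was under 0.05. Bmpr1a and Scly carry a dot in all 6 columns, and Pvt1, Treml4 and Pik3cg carry one after β-glucan and LPS alone.

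The change itself was tested in 2 ways. The age difference after LPS minus that before LPS in primed cells passed for 0 of 17648 genes (0%) in edgeR and for 0 in DESeq2, with 744 genes at an unadjusted p under 0.05 and a smallest adjusted p of 0.912. Among the 10 genes with the smallest p were Abhd15 (-2.55 ± 0.60), Pvt1 (-1.51 ± 0.40), Pvrig (3.19 ± 0.86) and Zfp956 (1.29 ± 0.35), which did not pass. The age difference under LPS in primed minus that in naive cells passed for 1 gene (0.00567%), Cep19, which encodes a centrosomal protein; 923 genes had an unadjusted p under 0.05. Cep19 (mm10 chr16:32099800-32108069) was at 1.17, 1.18 and 2.14 CPM in aged and 2.48, 2.73 and 3.03 CPM in young primed cells under LPS. In naive cells under LPS Cep19 was at 2.12, 1.51 and 1.23 CPM in aged libraries, 0.63, 0.92 and 0.81 CPM in young replicates 1 to 3 and 0.65, 1.06 and 1.25 CPM in young replicates 4 to 6. Its age difference was -0.87 ± 0.23 in primed cells (adjusted p = 0.109) and 0.96 ± 0.23 in naive cells (adjusted p = 0.0385). The difference between them was -1.83 ± 0.33 (adjusted p = 0.028).

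Lists of further cell types held no call, beside 0.164% of all tested genes called. Summed levels in aged and young libraries were 60.6 to 76.3 and 64.7 to 70.1 CPM for neutrophil genes, 373.3 to 383.4 and 300.5 to 394.2 CPM for dendritic cell genes, and 119.7 to 134 and 119 to 157.6 CPM for endothelial genes. They were 2.05 to 3.39 and 1.33 to 2.76 CPM for B-cell genes, 3.67 to 6.37 and 6.02 to 7.13 CPM for T- and NK-cell genes, and 0.53 to 0.55 and 0.058 to 1.20 CPM for mast cell and basophil genes. Erythroid and platelet genes stood apart, at 154.7 to 163 CPM in aged and 106 to 136.5 CPM in young libraries, with 0 of 4 tested genes called. Single genes made up most of some of these sums. Bst2, also counted among the interferon-stimulated genes, averaged 367.7 CPM in aged and 345.1 CPM in young libraries in the dendritic cell list. Vwf averaged 93.1 and 103.9 CPM in the endothelial list, and Pf4 158.3 and 125 CPM in the erythroid and platelet list.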

How the data were processed

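The authors deposited raw read counts per gene from bulk RNA sequencing, for 54532 genes in 42 libraries, and every result came from this table. STAR and the mm10 build are named in the submitters' processing notes; the counting program, annotation release and strand setting are not given in the sources used here. The deposited FPKM table was not used.

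Groups followed age and treatment in the labels. In R 4.3.3, edgeR 4.0.16 fitted 1 model to 42 libraries in 12 groups (TMM; filterByExpr, minimum count 10; trended dispersion; robust quasi-likelihood F test). A further term took up young replicates 4 to 6 of vehicle and LPS, so that young means stand at replicates 1 to 3. Adjustment was over the 17648 tested genes of each comparison, and the floor of 3 counts covers counting error only. The scripts were tested on simulated data. DESeq2 1.42.0, limma 3.58.1 (voom) and other settings were alternatives.

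The comparison, gene lists, tests and alternatives were chosen with earlier results of these data known. Genes named by rule were the 15 largest rises and falls among calls whose mean log2 CPM reached 3, called list members, 42 key genes, abundant markers of other cell types, and the 10 smallest p where fewer than 10 genes were called. The remaining calls, Cd74, Marco, Slc7a1, Ass1 and the neighbours of called genes were chosen after their values were seen.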

Additional observations from a re-analysis of the deposited data

Results flagged for a closer look

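The age difference of Cep19 under LPS differed between primed and naive cells by -1.83 on the log2 scale (edgeR adjusted p = 0.028), by a test of the difference itself. The aged libraries were all below the young in primed cells and above young replicates 1 to 3 in naive cells, where they overlapped young replicates 4 to 6 (1.23 to 2.12 CPM in aged, 0.65 to 1.25 CPM in replicates 4 to 6). No gene was called in this comparison without young primed replicate 2 or 3, aged primed replicate 1 or 2, young naive replicate 1 or 3, or aged naive replicate 1 or 2.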

How the results depend on the processing

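Calls between aged and young primed cells under LPS, 29 as reported, numbered 29 with RLE factors and 27 with total counts. They numbered 27 with legacy quasi-likelihood and 35 with only the groups compared. Without the filter on low counts there were 15, and without the term for young replicates 4 to 6 there were 7. There were 5 with the young mean midway between the young sets, 15 with limma voom and 104 with DESeq2. With single libraries left out there were 2 to 27. Such totals can include genes outside the 29. Of the 29 themselves, 26 were called with total counts, 26 with legacy quasi-likelihood and 20 with only the groups compared. The midway young mean kept 3 of them, limma voom 10 and DESeq2 26. Over 463 values of the called genes under these settings, 261 kept the call, 202 lost it and 0 changed sign; the causes were not tested. The 42 key genes were called in 0 of 671 values. The age difference after LPS minus before LPS gave 0 calls under every setting run. The age difference in primed minus naive cells under LPS gave 1 call, 0 with only the groups compared, 22 with DESeq2, Cep19 among them, and 0 to 4 with single libraries left out.

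Across all genes no pairing by replicate number was seen: over 15 pairs of same-numbered libraries the correlation of deviations was -0.036 to 0.065. The stromal genes differed from this in aged cells. Their summed level was lowest in the same replicate number in every treatment, at 115.6 CPM after β-glucan and LPS and 63.59 CPM under vehicle. In young cells the lowest number varied between treatments. Whether same-numbered libraries shared a mouse or culture was not tested. With the replicate number as a block, 57 genes were called between ages, all 29 among them, and 0 in primed minus naive cells. In the fit to all 42 libraries, with 3 per age in this comparison, 9 of the 42 key genes had intervals reaching beyond 1 log2 unit.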
